A study of Mus musculus with 51 samples.

Results

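Hsd3b5 and Selenbp2 are 2 genes of the 33773 symbols in the deposited expression matrix of a mouse liver series on the FoxA transcription factors. They were chosen by their values, as the lowest genes of FoxA1/A2 Cre alfp against FoxA1/A2 lox hepatocytes: among called genes whose libraries do not overlap and whose higher mean is at least 5 RPKM, they stand at rank 1 and 2. RPKM is a read number scaled for gene length and for the reads of the library. Both passed the filter on low values in hepatocytes and in liver. The comparison of Cre alfp with lox is therefore given for both genes as a description with no test, and both genes are tested only between other groups.

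RNA was sequenced from hepatocytes in 4 groups and from liver in 2 groups. The FoxA3 null hepatocytes (4 libraries) came from animals with both alleles of FoxA3 disrupted and with floxed, undeleted alleles of FoxA1 and FoxA2, which received adeno-associated virus with GFP at 8 weeks of age. The FoxA triple null hepatocytes (4 libraries) came from mice of that genotype given AAV8 at 8 weeks of age, with Cre recombinase driven by the hepatocyte-specific Tbg promoter, so FoxA1 and FoxA2 were deleted in adult cells that had never had FoxA3. The FoxA1/A2 lox (3 libraries) and FoxA1/A2 Cre alfp (4 libraries) groups carry FoxA3; the first is labelled as floxed for FoxA1 and FoxA2 and the second carries a Cre named alfp, for which the labels give neither age nor time of deletion. The liver groups are labelled HNF4a control (2 libraries) and HNF4a null (4 libraries), the latter deleted in adult liver. Nothing in the labels says which libraries come from separate animals, so p-values measure the spread between these libraries, which may be technical.

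Hsd3b5 belongs to the 3-beta-hydroxysteroid dehydrogenase family. Unlike the relatives that make active steroids in the gonad and adrenal gland, its product works in mouse liver as a 3-ketosteroid reductase that inactivates steroid hormones. Selenbp2 encodes a selenium-binding protein first known in mouse liver as a protein that binds acetaminophen, and its close relative Selenbp1 is a methanethiol oxidase. Both genes are known in mouse liver for higher RNA in males than in females, a pattern that depends on pulsatile growth hormone acting through Stat5b. FoxA1, FoxA2 and FoxA3 are forkhead proteins that bind the enhancers of many liver genes, and HNF4a is a nuclear receptor that often binds beside them.

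Both genes lie on chromosome 3, each next to or near relatives, and the promoters of the 2 genes are shown with those of a relative each because neither relative was called in the hepatocyte comparisons. Each sequence is the RefSeq window of 250 bases before and 50 after the gene's start (GRCm38.p6), written along the gene; the table holds 2 windows for Hsd3b3, of which the first listed is shown. Hsd3b5 is chr3:98645485-98645784 on the minus strand and Hsd3b3 is chr3:98763079-98763378 on the minus strand. Selenbp2 is chr3:94693323-94693622 and Selenbp1 is chr3:94932833-94933132, both on the plus strand. Capitals mark matches to any motif of the search: the forkhead letters TGTTTAC, their variants TGTTTGC and, with another start, TATTTAC, the STAT letters TTCNNNGAA, the HNF4a letters AAAGTCCA, the HNF6 letters ATCAAT, the C/EBP letters TTGCNNAA and the TATA letters TATAAA, each on both strands.
Hsd3b5: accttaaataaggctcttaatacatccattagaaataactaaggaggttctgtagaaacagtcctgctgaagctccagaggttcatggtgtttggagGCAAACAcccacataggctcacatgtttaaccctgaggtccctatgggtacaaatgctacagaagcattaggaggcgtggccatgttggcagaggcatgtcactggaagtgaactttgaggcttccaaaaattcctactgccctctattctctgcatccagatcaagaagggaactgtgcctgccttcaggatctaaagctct
Hsd3b3: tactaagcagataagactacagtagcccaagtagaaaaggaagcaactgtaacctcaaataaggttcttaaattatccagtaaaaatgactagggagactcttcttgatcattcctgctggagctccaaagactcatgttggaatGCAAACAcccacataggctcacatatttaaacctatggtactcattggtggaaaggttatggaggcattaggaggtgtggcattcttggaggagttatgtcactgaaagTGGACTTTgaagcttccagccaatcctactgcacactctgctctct
Selenbp2: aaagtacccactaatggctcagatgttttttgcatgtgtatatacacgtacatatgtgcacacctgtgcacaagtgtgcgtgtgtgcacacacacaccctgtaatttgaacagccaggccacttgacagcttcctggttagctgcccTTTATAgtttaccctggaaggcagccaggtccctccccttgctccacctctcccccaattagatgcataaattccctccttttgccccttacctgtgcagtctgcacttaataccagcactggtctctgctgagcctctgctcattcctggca
Selenbp1: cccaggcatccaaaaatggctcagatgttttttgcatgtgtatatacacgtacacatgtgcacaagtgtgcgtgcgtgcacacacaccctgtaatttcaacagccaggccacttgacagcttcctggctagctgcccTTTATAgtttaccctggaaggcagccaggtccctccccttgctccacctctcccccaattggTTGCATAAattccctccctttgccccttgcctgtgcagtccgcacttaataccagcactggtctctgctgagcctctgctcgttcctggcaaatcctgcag

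The promoters of Hsd3b5 and Hsd3b3 each hold GCAAACA, which is TGTTTGC on the other strand, at bases 98 to 104 and 146 to 152 of the window. These letters occur in 5.07% of 32851 mouse promoters of this length. Hsd3b3 also holds TGGACTTT at bases 255 to 262, the HNF4a letters on the other strand, which occur in 1.25% of promoters. The other Hsd3b3 window, chr3:98762361-98762660 on the minus strand, was 99.3% identical to the one shown over 299 aligned bases and holds both matches 1 base earlier, and no other. In Selenbp2 and Selenbp1 the capitals mark TTTATA, on the strand opposite to TATAAA, at bases 148 to 153 and 138 to 143 (13.6% of promoters), and Selenbp1 also has TTGCATAA at bases 200 to 207, a C/EBP match (10.8% of promoters). No other searched motif matched in the 4 windows, and none matched in that of Hsd3b2 (chr3:98724494-98724793, minus strand), the neighbour between Hsd3b5 and Hsd3b3. The other motifs occur in 3.65% (TGTTTAC), 3.04% (TATTTAC), 8.3% (TTCNNNGAA) and 7.54% (ATCAAT) of promoters. Such a match is a description of letters, not a shown binding site. Aligned with gaps, the Selenbp2 and Selenbp1 windows were 94.8% identical over 288 bases and those of Hsd3b5 and Hsd3b3 78.8% over 245 (79% over 248 with the other Hsd3b3 window). The unrelated pair Hsd3b5 and Selenbp2 reached 73.9% over 241 bases under the same alignment.

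The deletions were visible in the RNA, with an exception in the liver set. Foxa3 was at most 0.0114 RPKM in FoxA3 null and triple null libraries and 19.0 to 34.5 RPKM in lox and Cre alfp. Foxa2 was 0.991 to 1.26 RPKM in Cre alfp against 6.84 to 19.2 in lox, and 0.243 to 0.47 RPKM in the triple null against 11.1 to 20.6 in FoxA3 null. Foxa1 was 1.14 to 1.34 RPKM in Cre alfp and 3.04 to 3.63 in the triple null, against 4.71 to 8.21 in lox and 6.14 to 10.1 in FoxA3 null. Hnf4a went against the label: it was 118 and 126 RPKM in control but 487 to 545 RPKM in livers labelled HNF4a null, so every direction given for that group is that of the libraries so labelled. Higher with no overlap in that comparison were 52.6% of tested genes, Hnf4a among them. Summed over 11 hepatocyte markers, the level was 32590 to 39592 RPKM in the triple null and 71152 to 81829 in the 3 other hepatocyte groups, and all 11 exceeded 1 RPKM in some library of every group. The summed Y-linked genes Ddx3y, Eif2s3y, Kdm5d and Uty were 58.9 to 115.3 RPKM and Xist was at most 0.363 RPKM in the 21 libraries, so no library had the RNA pattern of a female. In 1277 of 11500 tested genes (11.1%) the 7 libraries with FoxA3 (lox, Cre alfp) did not overlap the 8 without it. This split follows the FoxA3 genotype, so the genotype and any other difference between these 7 and 8 libraries cannot be told apart. Relative depth, read from low values and set to 1 in the shallowest library, was 2.01 to 4.07 in hepatocytes and 1 to 1.1 in liver, so the lowest liver values are the least precise.

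With FoxA3 present, both genes were lower where FoxA1 and FoxA2 had been deleted. Hsd3b5 was 96.4, 121 and 127 RPKM in lox and 0.0944, 3.62, 0.703 and 0.552 RPKM in Cre alfp. The highest Cre alfp library lay far under the lowest lox library. The group means were 115 ± 16.2 (SD, n = 3) and 1.24 ± 1.61 (SD, n = 4), a ratio of 92.5. Cre alfp replicate 2, at 3.62 RPKM, set much of the low mean: without it the mean was 0.45 RPKM and the ratio 255.5. With each library left out in turn, the log2 difference of Hsd3b5 ranged from -6.34 to -5.64. Selenbp2 was 484, 617 and 160 RPKM in lox and 2.16, 25.6, 13.5 and 5.25 RPKM in Cre alfp. Lox replicate 3 was the low library of its group and still lay above every Cre alfp library. The means were 421 ± 235 (n = 3) and 11.6 ± 10.5 (n = 4), a ratio of 36.2, or 60.4 without Cre alfp replicate 2. The log2 difference of Selenbp2 ranged from -5.875 to -4.765 in the same way. In bulk RNA, fewer cells that express a gene and less RNA per cell cannot be told apart.

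On the log2(RPKM + 1) scale the differences were -5.91 for Hsd3b5 and -5.29 for Selenbp2, a scale on which the change of a low gene comes out too small. Both genes had libraries that did not overlap and were lower, as had 8.63% of the 11500 tested genes, and 1.10% of tested genes were called lower in this comparison (1.29% higher, 2.38% either way), where called means a limma adjusted p under 0.05 and an absolute log2 difference of at least 1. These values chose the 2 genes and nothing is read from them. Mup21, a major urinary protein, was just outside at -5.13 (13.9 against 431 RPKM), followed by Enho, which encodes the secreted peptide adropin, at -4.21. Mup14 (-5.85) and Mup11 (-5.69) had larger differences than Selenbp2, but their libraries overlapped and they were not called. The Mup genes have near-identical copies that may share reads, so single Mup values are uncertain.

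The 4 Cre alfp libraries had the same order for both genes, from replicate 1 over 4 and 3 to replicate 2. Over these libraries the highest value was 38.4 times the lowest for Hsd3b5 and 11.9 times for Selenbp2. Foxa1 and Foxa2 varied by factors of 1.17 and 1.27 over the same libraries and had other orders.

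**Figure D1:**
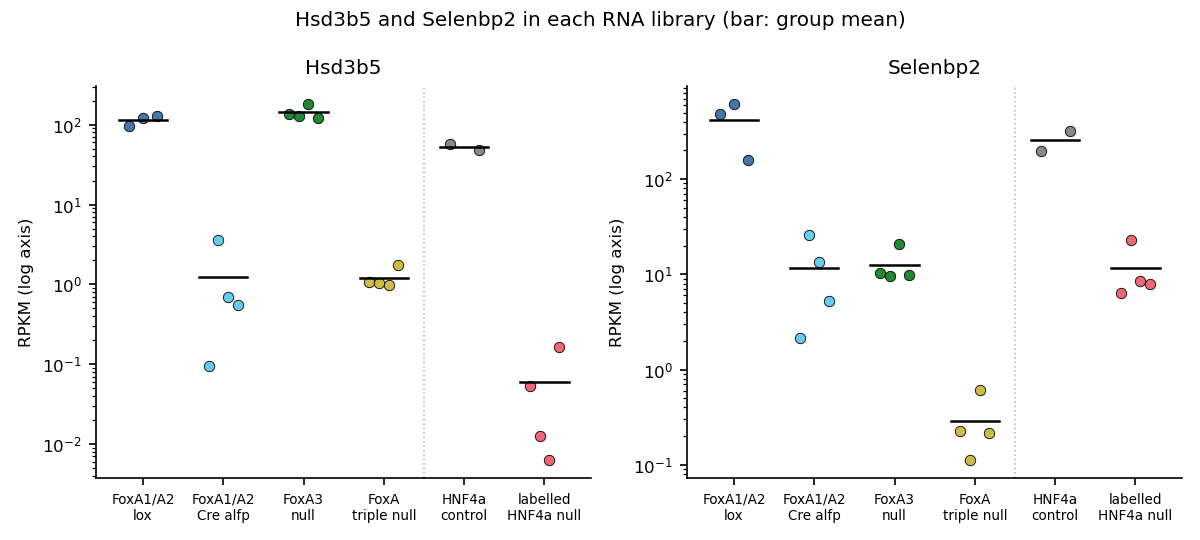
RPKM of Hsd3b5 and Selenbp2 on a log axis in each of the 21 libraries; points are libraries, bars are group means, and the dotted line parts hepatocytes from liver. Hsd3b5 in FoxA3 null (122 to 183 RPKM) sits at the level of lox, while Selenbp2 in FoxA3 null (9.49 to 20.7 RPKM) sits at the level of Cre alfp.

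The 2 genes had different levels relative to lox in FoxA3 null, where FoxA3 was the only FoxA gene missing. Hsd3b5 was 136, 130, 183 and 122 RPKM in FoxA3 null (mean 143 ± 27.1, SD, n = 4). These libraries overlapped those of lox, and the mean was 1.24 times that of lox. Selenbp2 was 10.4, 9.49, 20.7 and 9.83 RPKM in FoxA3 null (mean 12.6 ± 5.41, SD, n = 4). All 4 values lay under all 3 lox values, the lox mean was 33.4 times higher, and the FoxA3 null libraries overlapped those of Cre alfp. Of 11500 tested genes, 14.4% were lower in FoxA3 null than in lox with no overlap, and the Selenbp2 difference of -4.82 on the log2 scale was the 18th lowest. Hsd3b5, at 0.30 on that scale, lay near the median of all genes, 0.103. This comparison shares the lox libraries with the one that chose the genes, so no test is given. The FoxA3 null animals also received virus with GFP at 8 weeks of age, and the labels list no age at injection for lox. The FoxA3 genotype and such differences between the 2 groups cannot be told apart. The HNF4a control livers, which have Foxa3 RNA at 27.5 and 31.4 RPKM, had Selenbp2 at 200 and 319 RPKM, within the range of lox.

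Deletion of FoxA1 and FoxA2 in cells without FoxA3 was tested between groups that had no part in the choice. The lox and Cre alfp libraries share the estimate of the spread in that fit, so the adjusted p from a fit without them is given as well. Hsd3b5 was 1.08, 1.05, 0.982 and 1.72 RPKM in the triple null. Every triple null library lay under every FoxA3 null library. Hsd3b5 fell from 143 ± 27.1 to 1.21 ± 0.346 RPKM (n = 4 each), a ratio of 118 and a log2 difference of -6.02 (SE 0.32, 95% interval -6.71 to -5.33, limma adjusted p 6.33e-09 over all genes, 2.49e-08 with only the libraries of these 2 groups). It was the 4th lowest of 11500 genes. Selenbp2 was 0.224, 0.111, 0.615 and 0.216 RPKM in the triple null, again under every FoxA3 null library. It fell from 12.6 ± 5.41 to 0.292 ± 0.222 RPKM, a ratio of 43.2 (68.5 without triple null replicate 3) and a log2 difference of -3.34 (SE 0.55, 95% interval -4.53 to -2.15, limma adjusted p 0.000457, or 1.1e-05 with only these 2 groups), the 54th lowest. With a pseudocount of 0.1 instead of 1, the Selenbp2 difference was -5.09, since its triple null values lie under 1 RPKM. In all, 3.95% of tested genes were called lower here (4.17% higher, 8.11% either way) and 11.8% were lower with no overlap; the 2-sided exact permutation p was 0.0286 for each gene, the smallest that 4 against 4 libraries can give.

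Some other measures moved along with this comparison, the summed hepatocyte markers given above among them. The 5 neutrophil markers summed to 9.3 to 109.4 RPKM in the triple null, against 0.7 to 1.9 in FoxA3 null, where 4 of the 5 were under 1 RPKM in every library. In the same order of groups, the 8 endothelial markers summed to 8.2 to 16.9 and 31.0 to 47.8 RPKM, the 7 stellate cell markers to 6.9 to 24.6 and 26.0 to 35.5, and the 5 erythroid markers to 7.4 to 28.4 and 34.0 to 48.0. The 16 acute phase genes summed to 11668 to 18495 RPKM and 4722 to 9204 RPKM, with 9 called higher and 2 lower, beside 4.17% and 3.95% of all genes. The part of these in the fall of Hsd3b5 and Selenbp2 was not tested. In Cre alfp against lox, where both genes were also low, the hepatocyte marker sums were 71290 to 75512 and 77545 to 81829 RPKM. The erythroid sums were 15.8 to 29.2 and 81.6 to 90.8 RPKM, and neither sum overlapped. The endothelial (21.9 to 78.1 and 39.8 to 66.2 RPKM) and stellate cell sums (14.7 to 54.5 and 22.2 to 29.1) overlapped. So did the Kupffer cell (18.1 to 52.9 and 6.9 to 33.6) and cholangiocyte sums (2.6 to 7.1 and 4.3 to 14.0). The lymphocyte sums (0.3 to 1.0 and 0.3 to 0.4) overlapped as well. The neutrophil sums were 1.4 to 3.6 and 0.8 to 1.4 RPKM and the acute phase sums 9052 to 11984 and 11739 to 17586 RPKM, with 2 of the 16 genes called lower and 2 higher (1.10% and 1.29% of all genes); the part of these markers was not tested either. Only 1 was called lower there when any library but Cre alfp replicate 2 was left out. In the liver set 5 acute phase genes were called lower and 5 higher, beside 5.95% and 8.58% of all genes; the 5 higher became 3 without control ACTGATA, with no filter or with libraries scaled to a common median, and 2 without control ATTCCTA. One of the 5, Orm3, passed the filter only through the libraries labelled null and so had to be higher.

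Set side by side, the FoxA1/A2 deletion moved Hsd3b5 by -6.02 without FoxA3 and by -5.91 with it, and Selenbp2 by -3.34 and -5.29. With a pseudocount of 0.1 in place of 1, the Selenbp2 values were -5.09 and -5.495. The ratios of mean Selenbp2 RPKM were 43.2 without FoxA3 and 36.2 with it. This order turned without Cre alfp replicate 2 (second ratio 60.4) or lox replicate 3 (second ratio 47.4). It also turned without FoxA3 null replicate 3 (first ratio 33.9) or triple null replicate 2 (first ratio 35.8). Without triple null replicate 3 the first was 68.5. The way of deletion differs between the arms, and the second value of each pair chose the genes, so the difference was not tested. In RPKM, the Cre alfp and triple null libraries overlapped for Hsd3b5 (means 1.24 and 1.21, the first 0.45 without Cre alfp replicate 2). For Selenbp2 they did not: the triple null mean was 39.9 times lower than the Cre alfp mean and 1443 times lower than the lox mean. Without triple null replicate 3, at 0.615 RPKM, these were 63.2 and 2289 times, and without Cre alfp replicate 2 the first was 23.9 times. Lower with no overlap were 13.8% of tested genes in triple null against Cre alfp and 16.7% in triple null against lox. Ordered by level, Hsd3b5 thus formed a high set (FoxA3 null, lox, then HNF4a control at 52.5 ± 6.75, n = 2, under both) and a low set. Selenbp2 had 3 levels: lox and HNF4a control, which overlapped; FoxA3 null and Cre alfp, which overlapped; and the triple null under all of these. From the top of the 33773 symbols by group mean, Selenbp2 stood at place 218 in lox, 4292 in Cre alfp, 4231 in FoxA3 null and, lowest, 12555 in the triple null. Hsd3b5 stood at place 750, 10288, 624 and 10219 in the same groups.

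**Figure D2:**
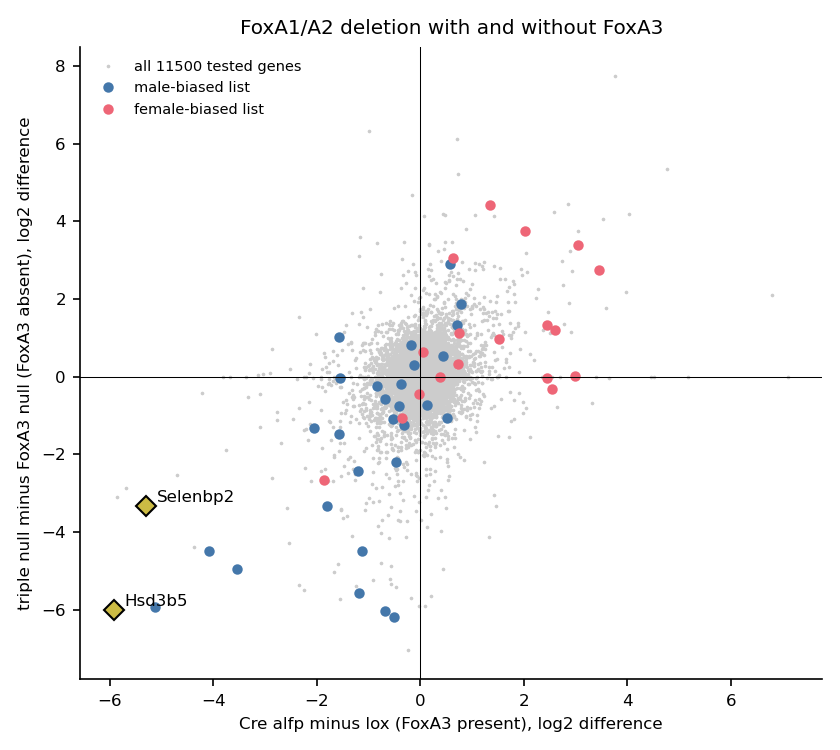
Each point is 1 of the 11500 tested genes, with the log2(RPKM + 1) difference of Cre alfp from lox on the x axis and that of triple null from FoxA3 null on the y axis; colours mark the male-biased and female-biased lists and diamonds the 2 genes. Hsd3b5 (-5.91, -6.02) and Selenbp2 (-5.29, -3.34) lie at the lower left beside Mup21 (-5.13, -5.93), and the x axis values of both chose them.

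The level of 1 gene relative to the other can be read in each library. The ratio of Selenbp2 to Hsd3b5 RPKM was 5.02, 5.09 and 1.26 in lox and 7.07 to 22.9 in Cre alfp. In FoxA3 null it was 0.0728 to 0.113, and in the triple null 0.106 to 0.627. The 2 groups without FoxA3 thus had ratios under 1 in all 8 libraries. Ratios were over 1 in all 7 libraries of the 2 groups with FoxA3. This again follows the split by FoxA3 genotype, from which other differences between these libraries cannot be told apart.

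In the liver set, both genes were lower in the libraries labelled HNF4a null. Hsd3b5 was 57.3 and 47.7 RPKM in control and 0.0529, 0.0127, 0.00624 and 0.165 RPKM where the label is HNF4a null. All 4 lay under every hepatocyte library except Cre alfp replicate 1, at 0.0944 RPKM, which 3 of them were also under. Hsd3b5 fell from 52.5 ± 6.75 (n = 2) to 0.0592 ± 0.0734 RPKM (n = 4), which is -5.99 on the log2 scale relative to the median of all genes (SE 0.13; adjusted p 8.74e-07 by limma). It passed the filter on low values through the 2 control libraries alone, so a gene that entered in this way had to be lower; with no filter the limma adjusted p was 5.32e-05. With a pseudocount of 0.1 the difference before centring was -8.46 instead of -5.66. Selenbp2 was 200 and 319 RPKM in control and 6.35, 23.2, 8.59 and 7.97 RPKM under the HNF4a null label. The groups did not overlap, and the low libraries overlapped FoxA3 null and Cre alfp hepatocytes in level. Selenbp2 fell from 259 ± 84.4 to 11.5 ± 7.83 RPKM, which is -4.85 on that relative scale (SE 0.48; adjusted p 0.000503 by limma). The median of all genes was 0.337 above 0, which is taken off here. In this comparison 5.95% of 12434 tested genes were called lower (8.58% higher, 14.5% either way; 740 and 1067 genes, or 986 and 572 with libraries scaled to a common median) and 14.4% were lower with no overlap. The exact permutation p was 0.0667 for each gene, the smallest that 2 against 4 libraries allow, so that test cannot reach 0.05. Of the FoxA genes, Foxa2 was 6.14 and 6.22 RPKM in control and 3.28 to 5.62 under the null label, and Foxa3 was 27.5 and 31.4 against 23.3 to 29.1 RPKM; neither was called. The 7 cholangiocyte markers summed to 14.7 to 15.0 RPKM in control and 108.7 to 206.5 under the null label, and the 11 hepatocyte markers to 43833 to 45511 and 18497 to 24931 RPKM. In the same order of groups, the sums were 95.4 to 104.3 and 114.9 to 148.1 RPKM for 7 Kupffer cell markers, 143.4 to 167.6 and 198.4 to 214.5 for 8 endothelial markers, and 100.9 to 112.9 and 119.3 to 141.8 for 7 stellate cell markers. They were 1.1 to 2.0 and 3.3 to 14.9 RPKM for 5 neutrophil markers and 2.7 to 2.8 and 4.0 to 5.3 for 6 lymphocyte markers. None of these 7 sums overlapped between the groups. The sum of the 5 erythroid markers did, at 289.7 to 324.3 RPKM in control and 186.6 to 566.9 under the null label. Over all tested genes, 52.6% were higher and 14.4% lower with no overlap. The part of these markers in the result was not tested.

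No tested relative of Hsd3b5 was called in Cre alfp against lox or in triple null against FoxA3 null. This is near the share over all genes, of which 2.38% and 8.11% were called. Hsd3b2 and Hsd3b3, the next genes beside Hsd3b5 on 1 side in the RefSeq annotation, encode dehydrogenases of the same family. Hsd3b3 was 90.5, 89.9 and 92.0 RPKM in lox and 71.1, 96.9, 72.6 and 90.3 RPKM in Cre alfp. The groups overlapped, with a log2 difference of -0.15 (limma adjusted p 0.657). It was 142, 120, 113 and 106 RPKM in FoxA3 null and 163, 136, 172 and 188 RPKM in the triple null. The triple null was higher by 0.45 on the log2 scale (SE 0.13, limma adjusted p 0.0194), which is under the minimum difference, and replicate 1 of FoxA3 null overlapped the triple null. Hsd3b2 was 26.0 ± 3.00 RPKM in lox and 16.1 ± 4.80 under Cre alfp, with libraries that did not overlap (log2 difference -0.70, limma adjusted p 0.0708). Without FoxA3 it was 20.2, 15.8, 16.4 and 11.7 RPKM before and 17.7, 13.0, 13.2 and 14.2 RPKM after the FoxA1/A2 deletion, with overlap (-0.12, limma adjusted p 0.675). Hsd3b7, an enzyme of bile acid synthesis, was 146 ± 37.7 RPKM in the triple null against 223 ± 26.5 in FoxA3 null, a difference that missed the call (-0.63, limma adjusted p 0.133) although the libraries did not overlap. Its Cre alfp difference was -0.17 (adjusted p 0.847). Hsd3b1 and Hsd3b6 were at most 0.143 RPKM, Hsd3b4 was listed at 0 in every library, and these 3 were not tested.

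In liver the tested Hsd3b relatives were called lower. Hsd3b3 and Hsd3b2 passed the filter there through the 2 control libraries alone, and with no filter their limma adjusted p values were 0.000161 and 0.000114. Hsd3b3 fell from 60.9 ± 7.85 (n = 2) to 0.246 ± 0.240 RPKM (n = 4), or -5.98 relative to the median (limma adjusted p 3.4e-06). Hsd3b2 was 9.31 and 8.15 RPKM in control and at most 0.0477 under the null label (relative difference -3.60, limma adjusted p 5.72e-06). Hsd3b7 fell by 2.76 relative to the median (34.3 ± 5.02 against 187 ± 15.5 RPKM, limma adjusted p 4.82e-05).

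**Figure D3:**
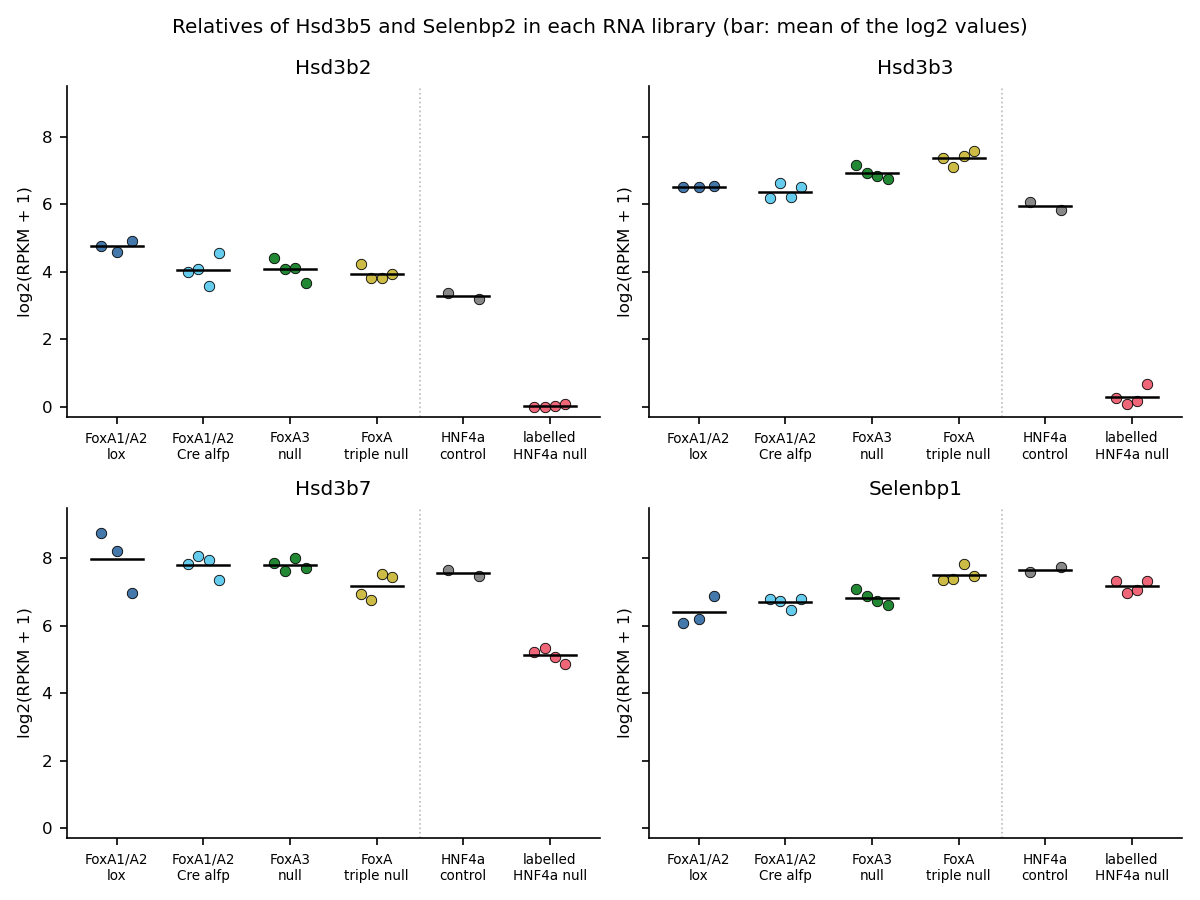
log2(RPKM + 1) of Hsd3b2, Hsd3b3, Hsd3b7 and Selenbp1 in each of the 21 libraries; points are libraries, bars are means of the log2 values, and the dotted line parts hepatocytes from liver. None of the 4 was called in either hepatocyte comparison. Over all genes, 2.38% were called in Cre alfp against lox and 8.11% in triple null against FoxA3 null. Hsd3b2 and Hsd3b3 drop to near 0 in the libraries labelled HNF4a null.

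Selenbp1, whose promoter window nearly matches that of Selenbp2, was higher, not lower, in the triple null, by less than a call needs. It was 134, 116, 105 and 96.1 RPKM in FoxA3 null and 161, 166, 226 and 177 RPKM in the triple null. The groups did not overlap, and the log2 difference of 0.69 (SE 0.17, limma adjusted p 0.00866) was under the minimum for a call. Higher with no overlap in this comparison were 16.2% of all tested genes. In Cre alfp Selenbp1 stood at 102 ± 9.98 RPKM (n = 4) against 85.7 ± 27.9 in lox (n = 3), a difference of 0.30 (limma adjusted p 0.456). In liver it was 201 ± 13.8 RPKM in control and 144 ± 18.4 under the null label, -0.82 relative to the median (limma adjusted p 0.0232, not called). The difference between the arms with and without FoxA3, tested for the relatives as an interaction, had limma adjusted p values of 0.192 for Hsd3b2, 0.0548 for Hsd3b3, 0.525 for Hsd3b7 and 0.327 for Selenbp1. Tuft1 and Cgn were named for their place beside Selenbp2, after their values were seen. Tuft1 on the near side was 5.84 RPKM in lox, 2.42 in Cre alfp, 1.73 in FoxA3 null and then 1.35 in the triple null. Cgn, the next gene on the other side, was 8.60, 7.88, 4.02 and 2.71 RPKM in the same order. Tuft1 was called lower in Cre alfp against lox, the comparison that chose Selenbp2, with no overlap and just past the minimum (log2 difference -1.004, SE 0.257, limma adjusted p 0.036; 1.10% of all genes called lower). It lost that call without lox replicate 2 or 3 or Cre alfp replicate 1, 2 or 3 (-1.01 to -0.79), with a pseudocount of 0.1, with no filter and with only these 2 groups in the fit (limma adjusted p 0.0516 to 0.157 over these settings). Cgn was at -0.12 there (limma adjusted p 0.861). In the triple null Tuft1 was at -0.18 (limma adjusted p 0.609) and Cgn at -0.43 (0.174), both with overlap.

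The genes whose levels ran most like each of the 2 genes were found by Pearson correlation over the 15 hepatocyte libraries, among 7723 genes with at least 5 RPKM in some group. The libraries of a group share their genotype, so these values describe the pattern over 4 groups and carry no test. Foxa2 itself was most like Hsd3b5 (0.961), with group means of 12.5, 1.09, 13.7 and 0.366 RPKM in lox, Cre alfp, FoxA3 null and triple null. Traf5 (0.957), a signalling adaptor, Cadm4 (0.942), a cell adhesion molecule, Mup21 (0.941) and Cyp2c70 (0.937), which makes muricholic acids, followed. Cyp2c70 was 330, 90.5, 240 and 65.6 RPKM in these groups. The genes least like Hsd3b5 were the transporter Slc22a26 (-0.962), the desaturase Scd2 (-0.962) and the hepcidin Hamp2 (-0.955). Scd2 was 0.104, 17.5, 0.425 and 26.0 RPKM, high where Hsd3b5 was low.

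Selenbp2 had other partners. Ppib (0.969), a cyclophilin of the endoplasmic reticulum, Nup210 (0.966), a nuclear pore protein, Insc (0.946), Col27a1 (0.931) and Rtp3 (0.920) were most like it. Col27a1, a fibrillar collagen, was 26.2 RPKM in lox, 5.69 in Cre alfp, 7.04 in FoxA3 null and only 0.224 in the triple null, the order seen for Selenbp2. Insc was 11.7, 3.21, 3.84 and 0.133 RPKM. Least like it were Pla2g12a (-0.971), Galk1 (-0.963) and Prps2 (-0.961). Between the 2 genes the correlation was 0.680, which put Selenbp2 at place 305 for Hsd3b5. Over all 21 libraries 1 of the 5 genes most like Hsd3b5 and 2 of the 5 most like Selenbp2 stayed among the 5, and by Spearman correlation 0 and 3.

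Hsd3b5 and Selenbp2 are male-biased in mouse liver, and other sex-biased genes were counted from lists that leave both out. Of 28 tested male-biased genes, 15 were called lower and 3 higher in the triple null against FoxA3 null (median log2 difference -1.09, all genes 0.0453), beside 3.95% and 4.17% of all tested genes. Ugt2b1, which conjugates steroids with glucuronic acid, fell from 309 ± 84.4 to 3.14 ± 0.469 RPKM (log2 difference -6.20, limma adjusted p 1.65e-11). Slco1a1, an organic anion transporter, fell from 162 ± 49.1 to 1.41 ± 0.338 (-6.04, adjusted p 9.94e-06). Mup21 fell by 5.93 and the complement gene C8b fell by 5.57. The 3 called higher were Ugt2b38, Cyp4a12a and Cyp4a12b. In Cre alfp against lox, 9 of the 28 were called lower and 0 higher (median -0.61, all genes 0.0168), beside 1.10% and 1.29% of all tested genes; 15 and 2 had an unadjusted p under 0.05. Mup21 (-5.13), Mup20 (-3.53) and Gstp2 (-2.05) led these, while Elovl3, an elongase of very long fatty acids, was at -4.07 with overlapping libraries and was not called (limma adjusted p 0.0574). Mup20 lost its call without lox replicate 1 or 2. With FoxA3 present, Ugt2b1 was at -0.50 (limma adjusted p 0.198) and Slco1a1 at -0.69 (0.674). Without lox replicate 2, or with only the lox and Cre alfp libraries in the fit, 6 were called lower.

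Female-biased genes had positive medians in all 3 comparisons. Of 18 tested, 9 were called higher and 0 lower in Cre alfp against lox (median 1.44; 1.29% and 1.10% of all genes), with 11 and 1 at an unadjusted p under 0.05. Slc22a26 rose from 0.143 ± 0.158 to 12.8 ± 6.73 RPKM (log2 difference 3.46, limma adjusted p 1.96e-05), and Cyp2c69, Cyp2b13 and Sult2a1 rose by 3.05, 2.99 and 2.60. Of the 18, Cyp2b13 and Sult3a1 passed the filter only through the Cre alfp libraries; with no filter, 6 of 30 were called higher and 0 lower. In the triple null against FoxA3 null, 6 were called higher and 2 lower (median 0.80; 4.17% and 3.95% of all genes). Cyp17a1, a steroid hydroxylase, rose from 4.93 ± 2.80 to 118 ± 28.0 RPKM (4.43, limma adjusted p 2.13e-06), and Cyp2c40, Cyp2c69 and Atp6v0d2 rose by 3.74, 3.40 and 3.05. Atp6v0d2 passed the filter only through the triple null, and Cyp2g1, called lower, only through FoxA3 null; with no filter, 5 of 30 were called higher and 1 lower. With any 1 library left out, 5 to 7 were called higher in the triple null and 6 to 8 in Cre alfp; 1 was called lower in the triple null without FoxA3 null replicate 1 or 4 or triple null replicate 2. Reads may likewise be shared within the Cyp2b, Cyp2c, Ugt2b and Hsd3b families, so their single values are uncertain too.

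In the libraries labelled HNF4a null, 25 of 26 male-biased genes were called lower and 0 higher (median -3.34 relative to all genes), beside 5.95% and 8.58% of all tested genes; all 26 and 0 had an unadjusted p under 0.05. Of the 26, 10 (Serpina4-ps1 and C8a among them) passed the filter through the 2 control libraries alone and so had to be lower; with no filter, 25 of 30 were called lower. Mup7, Serpina4-ps1, C8a and Mup20 led with relative differences of -8.06, -7.86, -7.45 and -7.17. Leaving out either control library left 17 tested genes, of which 15 or 16 were called lower. Of 13 female-biased genes, 11 were called higher and 1 lower (median 1.48), with Cyp2a4 (5.96), Cyp2b9 (5.76) and Slc22a26 (4.40) among the higher; without either control library 0 were called lower. Of the 13, 5 (Cyp2a4, Cyp2b9 and Slc22a26 among them) passed the filter only through the libraries labelled null and 1 only through control, and with no filter 10 of 30 were called higher and 1 lower.

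**Figure D4:**
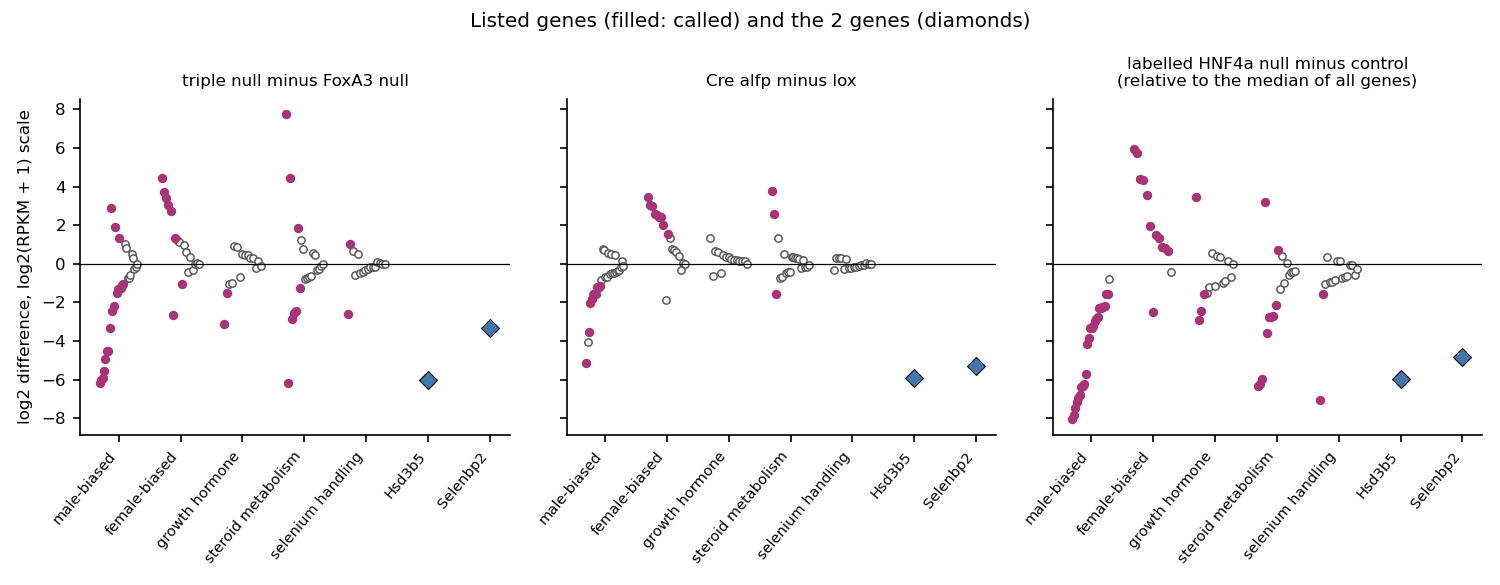
Differences on the log2(RPKM + 1) scale of the genes of 5 lists (circles, filled where called) and of Hsd3b5 and Selenbp2 (diamonds) in 3 comparisons; the panel of the libraries labelled HNF4a null is relative to the median of all genes. Called lower were 15 of 28 male-biased genes in the triple null (3.95% of all genes), 9 of 28 in Cre alfp (1.10%) and 25 of 26 in the libraries labelled HNF4a null (5.95%); the difference between panels was not tested.

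The growth hormone pathway carries the sex signal to liver. Ghr, the receptor, was 173 ± 28.6 RPKM in the triple null against 190 ± 51.4 in cells that lacked only FoxA3 (log2 difference -0.11, limma adjusted p 0.661), and 150 ± 31.2 in lox and 147 ± 6.84 in Cre alfp (-0.01, adjusted p 0.995). Stat5b, the transcription factor that acts under it, was at 0.45 in the triple null (limma adjusted p 0.0419, not called), and Igf1 at 0.84 (9.79e-05, not called). Cish at -1.05 (limma adjusted p 0.451) and Socs3 at -0.99 (0.211) were not called there either, with libraries that overlapped. Of 15 tested pathway genes, 2 were called lower in the triple null, the serum binding proteins Igfbp2 (-3.13) and Igfals (-1.51), and 0 higher, with 2 lower and 5 higher at an unadjusted p under 0.05; over all genes 8.11% were called either way. Without FoxA3 null replicate 3, 1 was called higher. In Cre alfp against lox, 0 of 15 were called and 1 had an unadjusted p under 0.05 by limma; the 0 is near the 2.38% called over all genes. In the libraries labelled HNF4a null, 3 were called lower and 1 higher, beside 5.95% and 8.58% of all genes. The 3 lower became 6 with libraries scaled to a common median or quantile normalized, or 5 without control ACTGATA or the library TAGCTTA. Ghr fell from 172 ± 1.27 to 28.6 ± 3.21 RPKM and Igf1 from 183 ± 6.01 to 42.3 ± 4.42. Their relative differences were -2.89 and -2.43 (limma adjusted p 1.51e-05 and 3.09e-05). The 1 called higher was Igfbp2, which was called lower in the triple null. Igfbp2 rose from 149.5 ± 13.1 to 2083 ± 165.5 RPKM (relative difference 3.45, limma adjusted p 3.18e-06).

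Among 20 other tested genes of steroid metabolism, a list that shares Ugt2b1 and Cyp17a1 among others with the sex-biased lists, 5 were called lower and 3 higher in the triple null, beside 3.95% and 4.17% of all tested genes. The estrogen sulfotransferase Sult1e1 rose from 4.29 ± 1.70 to 1123 ± 281 RPKM (log2 difference 7.75, limma adjusted p 9.48e-10), and Srd5a1, a steroid 5-alpha-reductase, fell by 2.85. With FoxA3 present 1 was called lower, Cyp7b1, an oxysterol hydroxylase, at -1.55, and 2 higher, Sult1e1 at 3.76 and Sult2a1 at 2.60, beside 1.10% and 1.29% of all genes. Cyp7b1 lost that call when lox replicate 1, 2 or 3 or Cre alfp replicate 4 was left out (adjusted p 0.0594 to 0.111 by limma), with no filter (0.0743), with the replicate block (0.0631) and with only the libraries of the 2 groups in the fit (0.129). That last fit tested 19 genes of the list and called 1 higher. In the libraries labelled HNF4a null 8 of 18 were called lower and 2 higher (5.95% and 8.58% of all genes), the latter 1 without the library TAGCTTA. Hsd3b2 and Hsd3b3 passed the filter there only through control and Sult1e1 only through the libraries labelled null; with no filter, 8 of 22 were called lower and 2 higher.

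Of 16 genes that handle selenium, Selenbp1 included, 1 was called lower and 1 higher in the triple null, near the 3.95% and 4.17% called over all genes. Sepp1, the plasma carrier of selenium, fell from 2924 ± 476 to 487 ± 148 RPKM (log2 difference -2.61, limma adjusted p 1.88e-07). Selk was at 1.02 and fell under the minimum difference when libraries were scaled to a common median (0.98), or when FoxA3 null replicate 1 or 2 or triple null replicate 2 or 4 was left out. It was also not called with quantile normalization. In Cre alfp against lox, 0 of the 16 were called and 0 had an unadjusted p under 0.05, where 2.38% of all genes were called, so the 0 is near the share over all genes. In the libraries labelled HNF4a null, 2 were called lower, Dio1, a deiodinase, at -7.06 and Sepp1 at -1.57 relative to the median, and 0 higher, beside 5.95% and 8.58% of all genes, with 8 lower and 4 higher at an unadjusted p under 0.05; without either control library 1 was called lower. Dio1 passed the filter through the 2 control libraries alone; with no filter, 2 of 17 were called lower.

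The authors' deposited tables of comparisons place both genes against other stages of liver. In the authors' deposited table of hepatoblast against adult hepatocytes, Hsd3b5 was at a log2 fold change of -6.90 (adjusted p 6.2e-152) and Selenbp2 at -8.24 (1.17e-42). The authors' deposited table of newborn against adult hepatocytes gives -8.28 (8.78e-36) for Hsd3b5 and -3.01 (0.000118) for Selenbp2. Both genes were thus lower at both stages than in adults. Hsd3b3 and Selenbp1 were also lower in the authors' deposited table of hepatoblasts, at -4.97 and -5.69, and were at -0.36 and -0.43 in that of newborns. The authors' deposited table of triple null against hepatoblast lists Hsd3b5 at 0.11 (adjusted p 0.806) and Selenbp2 at -2.93 (5.29e-08), while Hsd3b3 was at 5.59 and Selenbp1 at 6.55. In that table Selenbp2 was thus under the hepatoblast level, and Hsd3b3 and Selenbp1 were above it. For the comparisons above, the authors' deposited tables give Hsd3b5 -6.95 and Selenbp2 -5.95 for triple null against FoxA3 null, and -10.46 and -4.94 for the libraries labelled HNF4a null against control. In the authors' deposited table of triple null against Cre alfp, Hsd3b5 was at -0.24 (adjusted p 0.853) and Selenbp2 at -6.01 (1.72e-12).

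**Figure D5:**
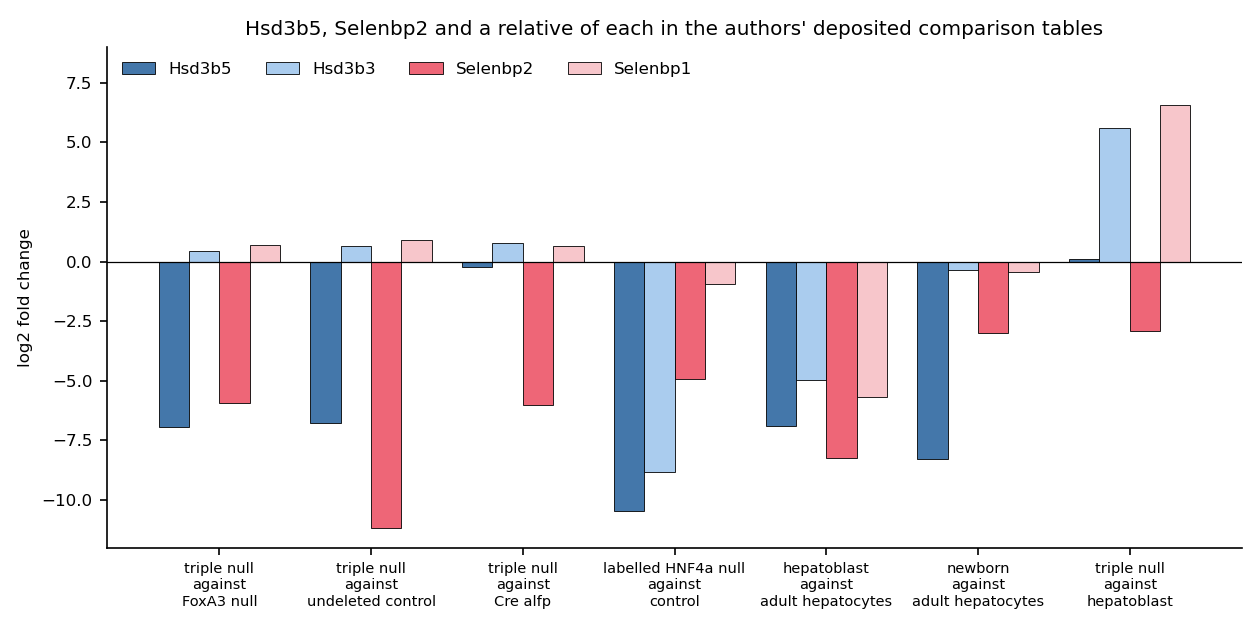
Bars show log2 fold changes of Hsd3b5, Hsd3b3, Selenbp2 and Selenbp1 in 7 comparison tables that the authors deposited; the libraries behind the adult reference are not given in the sources used here. Hsd3b5 is near 0 in the tables of triple null against Cre alfp (-0.24) and against hepatoblast (0.11), while Selenbp2 is below 0 in all 7.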

How the data were processed

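Expression values are RPKM that the authors deposited as 1 matrix; per the submitters' processing notes the build is mm9 and the tools include Cufflinks 2.2.1 and SAMtools, with no roles given. Of its columns, 21 matched a library by name and 9 columns of values were not used; the HNF4a columns carry barcodes. Of values above 0, 2.9% were under 1e-06. Absolute depth is unknown. Log2 fold changes and p-values of 7 comparison tables are the authors' own, as deposited; the table against undeleted controls had its sign turned, and the p-values of the table against Cre alfp were adjusted here by the Benjamini-Hochberg method. The HNF4a peak list was not used, since no genome of its build was at hand.

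Differences were tested on log2(RPKM + 1) with limma 3.58.1 in R 4.3.3 (lmFit, eBayes with trend, Benjamini-Hochberg over all tested genes): 1 fit of the 15 hepatocyte libraries over genes with at least 1 RPKM in at least 3, and 1 of the 6 liver libraries with at least 2. The fit was tested on simulated data. The 2 genes and all lists were chosen with earlier results of these data known. Named genes are the 2 genes, their families, the deleted genes, the genes most and least like them (5 and 3), and up to 4 genes of each list with the largest difference. Some listed genes outside these 4 are also given, Ghr, Stat5b and Igf1 in the triple null among them. Promoters came from a RefSeq table (GRCm38.p6) and were matched by symbol. Alternatives were other pseudocounts (0.1, 0.5), no filter, scaling to a common median, quantile normalization, a replicate block, fits of 2 groups only, and each library left out. A further setting kept only libraries with a Y-linked sum of at least 1 RPKM, which all libraries had. Replicate numbers did not pair samples. The result for 1 listed gene is not reported here.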

Additional observations from a re-analysis of the deposited data

Results flagged for a closer look

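Of 32 groups of 4 libraries screened, 5 held a library far from the others of its group; chance sets apart about 1 in 20 groups. Hsd3b5 in triple null replicate 4 was 1.725 RPKM, above the 0.982 to 1.08 of the other 3. Selenbp2 in FoxA3 null replicate 3 was 20.68 RPKM, and Foxa2 in the same library was 20.6 RPKM; Hsd3b5 was also highest there, at 183 RPKM. Selenbp2 in the library labelled HNF4a null with barcode GGCTAC was 23.18 RPKM. Hsd3b2 in the library labelled HNF4a null with barcode TAGCTTA was 0.04765 RPKM, against at most 0.00473 in the others, where such low values rest on very few reads.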

How the results depend on the processing

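Hsd3b5 and Selenbp2 kept their direction and their call in 54 of 54 values under the alternatives, for the triple null and for the livers labelled HNF4a null. These include the setting by Y-linked sum, which left out no library and so repeats the main fit. In liver Hsd3b5 passed the filter only through control, so its direction there was fixed in advance except with no filter. With 1 library left out, the triple null difference ranged from -6.12 to -5.89 for Hsd3b5 and from -3.45 to -3.09 for Selenbp2, and the liver difference before centring from -5.70 to -5.63 and from -4.88 to -4.17. Leaving out a control liver library gave no value for Hsd3b5, which then failed the filter. Counts of called genes with 1 library left out were 866 to 1034 (933 with all) for the triple null, 1590 to 1834 (1807) for liver and 177 to 284 (274) for Cre alfp against lox, where lox replicate 1 gave the 177. That comparison had 182 with only its own libraries in the fit. Quantile normalization changed the liver split from 740 lower and 1067 higher to 900 and 584. Without lox replicate 1, Cish, Socs3 and Hsd3b7, none called, changed sign in Cre alfp against lox; with 1 library left out they ranged from -0.55 to 1.44, from -0.18 to 1.245 and from -0.67 to 0.22. Tuft1 in the triple null changed sign to 0.020 without FoxA3 null replicate 3 (range -0.29 to 0.020), and Cgn in Cre alfp against lox without lox replicate 1 or Cre alfp replicate 4 (-0.36 to 0.093); neither was called. Of the other values of named genes, 1150 of 1198 kept direction and side of the threshold, 38 lost and 3 gained a call. Same-numbered libraries did not deviate together (correlations -0.36 to 0.116); with a replicate block the counts were 919 and 229, and the triple null differences were -6.02 (limma adjusted p 2.29e-07) for Hsd3b5 and -3.34 (0.00143) for Selenbp2. No paired analysis was possible for liver because its columns carry no replicate numbers. Depth limits the values under 1 RPKM most, in liver above all.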
